A study of Homo sapiens with 30 samples.

Results

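The RBM genes, named for the RNA-binding motif in their proteins, were followed here through 30 RNA-seq libraries. Members were the protein-coding genes whose symbol starts with RBM and a digit, matched by gene identifier, which gave 38 members of 60664 genes in the count tables and of 19942 protein-coding genes. The libraries formed 10 groups of 3 separate cultures. Wild-type K562 cells, an erythroleukemia line, and wild-type HCT116 cells, a colon cancer line, were treated for 3 days with 10 µM DNMT1i, a selective noncovalent inhibitor of the maintenance DNA methyltransferase DNMT1, or with DMSO as vehicle. A K562 clone in which SON and SRRM2 carry a degron tag, here called speckle cells, was treated for 6 hr with 500 nM dTAG-13, which causes degradation of the tagged proteins, or with DMSO. An HCT116 clone homozygous for HaloTag-CTCF, called HT-CTCF, made up the other 4 groups: HaloPROTAC3 with 10 µM DNMT1i, HaloPROTAC3 with DMSO, 10 µM DNMT1i alone, and DMSO alone, each for 1 day, with HaloPROTAC3, a degrader of HaloTag proteins, given beforehand and throughout. Each engineered model is a clone, and the SRRM2 tag removes the end of that protein, so a difference between a clone and its parent line cannot be told apart from a difference between clones.

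RBM is a naming class and not a pathway. Most RBM proteins carry RNA recognition motifs and act on pre-mRNA: some choose splice sites beside the U1 and U2 snRNPs, some belong to the major or minor spliceosome or to the exon junction complex, and others link RNA to the nuclear exosome, to the m6A methyltransferase or to ribosome assembly. Several are restricted to a tissue, including RBM46 and RBM44 in the germ line, RBM20 and RBM24 in muscle, and RBM47 in epithelia. DNMT1 copies CG methylation onto the new DNA strand, and germ-line genes are a class known to be kept silent by promoter methylation in somatic cells, whereas SON and SRRM2 are scaffold proteins of nuclear speckles, where many splicing factors gather.

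Total counts ran between 16173008 and 21228534 in the 18 libraries of wild-type and speckle cells and between 4243092 and 9407430 in the 12 of HT-CTCF cells, so low members are less precisely known in HT-CTCF cells. Erythroid markers summed to 446 to 557 CPM (gene counts scaled to a common library total) in the K562-derived groups and to 0.902 to 4.04 CPM in the HCT116-derived groups, and epithelial markers to 3070 to 4490 CPM in the HCT116-derived groups and 432 to 1090 CPM in the K562-derived groups. No library pair of a group agreed within counting noise (smallest chi-square per degree of freedom 1.79). dTAG-13 and HaloPROTAC3 act on proteins, so the RNA of the tagged genes does not check the labels: SRRM2 RNA rose by 0.41 on the log2 scale with dTAG-13 (adjusted p = 0.00864), SON gave 0.15 (adjusted p = 0.159), and CTCF RNA rose by 0.73 and 0.67 with HaloPROTAC3 in DMSO and in DNMT1i cultures.

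Members differed widely in level. Of the 38, 31 had counts in all 30 libraries and 7 did not. Per kilobase of exon, RBM3, the cold-inducible translation regulator, stood first in HCT116 DMSO cells at 27.3 CPM per kb, and RBM22, a component of the activated spliceosome, stood first in K562 DMSO cells at 30.6 CPM per kb. The members together took 0.201% of counts in K562 DNMT1i and 0.204% in K562 DMSO cells. In HCT116 cells they summed to 2298, 2360 and 2360 CPM with DNMT1i, against 2045, 2065 and 2000 CPM with DMSO, without overlap. RBM46 alone averaged 69.3 CPM with DNMT1i, against 0.443 CPM with DMSO. CPM also lacks the normalization of the tests below, by which the members' median log2 fold change was 0.14, against 0.02 over all genes. The sums themselves were not tested and do not show that the members rose as a whole. Of the members, 4 share more than 10% of their exon bases with another gene on the same strand, where counts can be split or lost: RBM14-RBM4 (77.2%), RBM34 (48.6%, with ARID4B), RBM27 (44.8%) and RBM4 (23.8%). Another 6 share more than 10% with a gene on the opposite strand, RBM12B most (46.6%), and 7 members have pseudogene copies by name. The levels of these members are uncertain to that extent.

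DNMT1 inhibition for 3 days raised the germ-line members RBM46 and RBM44 in both lines. Their promoters are printed because DNMT1 acts on CG dinucleotides, which are in capitals here. The sequences are RefSeq windows of GRCh38.p14 that run from 250 bases before to 50 bases after an annotated start, 5′ to 3′ on the gene's strand. Another window, at an internal start of RBM47, is shown for the exon result given further on.
RBM46 (chr4:154781022-154781321, plus strand): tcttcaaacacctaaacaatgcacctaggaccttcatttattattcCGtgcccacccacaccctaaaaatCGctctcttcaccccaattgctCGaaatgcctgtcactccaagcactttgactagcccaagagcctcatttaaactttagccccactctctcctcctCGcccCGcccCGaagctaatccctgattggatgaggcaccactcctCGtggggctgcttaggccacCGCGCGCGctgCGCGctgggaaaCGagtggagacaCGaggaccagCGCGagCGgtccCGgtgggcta
RBM44 (chr2:237798529-237798828, plus strand): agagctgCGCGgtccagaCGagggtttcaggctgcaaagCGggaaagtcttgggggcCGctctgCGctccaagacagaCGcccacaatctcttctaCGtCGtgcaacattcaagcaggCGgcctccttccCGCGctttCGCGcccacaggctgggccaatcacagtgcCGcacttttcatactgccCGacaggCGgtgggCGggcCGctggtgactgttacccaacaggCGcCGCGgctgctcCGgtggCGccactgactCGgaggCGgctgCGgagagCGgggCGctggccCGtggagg
RBM47 (chr4:40515936-40516235, minus strand): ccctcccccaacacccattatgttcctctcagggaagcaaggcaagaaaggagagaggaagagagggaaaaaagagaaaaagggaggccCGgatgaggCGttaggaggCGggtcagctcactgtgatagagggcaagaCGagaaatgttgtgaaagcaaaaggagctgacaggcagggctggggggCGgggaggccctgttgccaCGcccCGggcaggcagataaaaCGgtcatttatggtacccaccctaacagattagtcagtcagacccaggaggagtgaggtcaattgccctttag
The motif searched was CG, which reads the same on both strands. The printed RBM46 window holds 19 CG and the RBM44 window 30, against a median of 14 (quartiles 4 to 28) over 35116 such windows. A second, overlapping RBM46 window at a later annotated start (chr4:154781255-154781554) holds 30 CG and is not printed. The printed RBM47 window holds 8 CG, and its other 3 windows hold 5, 19 and 14. Windows were found for 34 members (39 windows), with 5 to 47 CG and a median of 23. At least 1 CG stood in 96.0% of all windows and in 100% of the members' windows, so the presence of a CG sets no member apart. Methylation was not measured in these files.

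RBM46, an RNA-binding protein of germ cells that mice need for meiosis, made the largest response to DNMT1i of any member. It had 70.2, 63.5 and 74.1 CPM in HCT116 DNMT1i cultures, against 0.231, 0.535 and 0.564 CPM in HCT116 DMSO cultures. Every treated culture lay far above every vehicle culture, a log2 fold change of 7.15 ± 0.17 (SE, n = 3 each) and a fitted 142-fold rise (adjusted p = 1.34e-17, edgeR quasi-likelihood test, Benjamini-Hochberg over all genes, as for every adjusted p below). In K562 cells it had 2.2, 2.19 and 2.14 CPM with DNMT1i, against 0.0478, 0.176 and 0 CPM with DMSO. This rise, 4.73 ± 0.46 on the log2 scale (adjusted p = 6.27e-05), also left no overlap, but the K562 level after treatment stayed well under that of HCT116. In bulk RNA, more cells that express a gene and more RNA per cell cannot be told apart.

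The reads of RBM46 were spread along the gene. Of its 13 exon bins, the pieces into which exons are cut at annotated boundaries, 12 had counts in every HCT116 DNMT1i library. The second bin (chr4:154781272-154781436), chosen after its values were seen, begins inside the printed window, at the annotated start that the window was taken from. It had 18, 54 and 40 counts in HCT116 DNMT1i cells, against 0, 0 and 0 in HCT116 DMSO cells. The bin ahead of it (chr4:154781213-154781271), which lies wholly inside the window, had 5, 6 and 6 counts, against 0, 0 and 0. Both bins at the 5′ end of RBM46 thus had reads in all 3 treated cultures.

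RBM44, which in mice marks the intercellular bridges of male germ cells, followed with 11, 9.33 and 10.1 CPM in HCT116 DNMT1i cultures, against 0, 0.214 and 0.564 CPM in HCT116 DMSO cultures. It rose by 5.14 ± 0.32 on the log2 scale (adjusted p = 3.06e-11). In K562 cells it had 3.27, 2.19 and 2.59 CPM with DNMT1i, against 0.86, 0.41 and 0.301 CPM with DMSO. This was a rise of 2.26 ± 0.33 (adjusted p = 0.00121), and in neither line did the groups overlap.

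**Figure D1:**
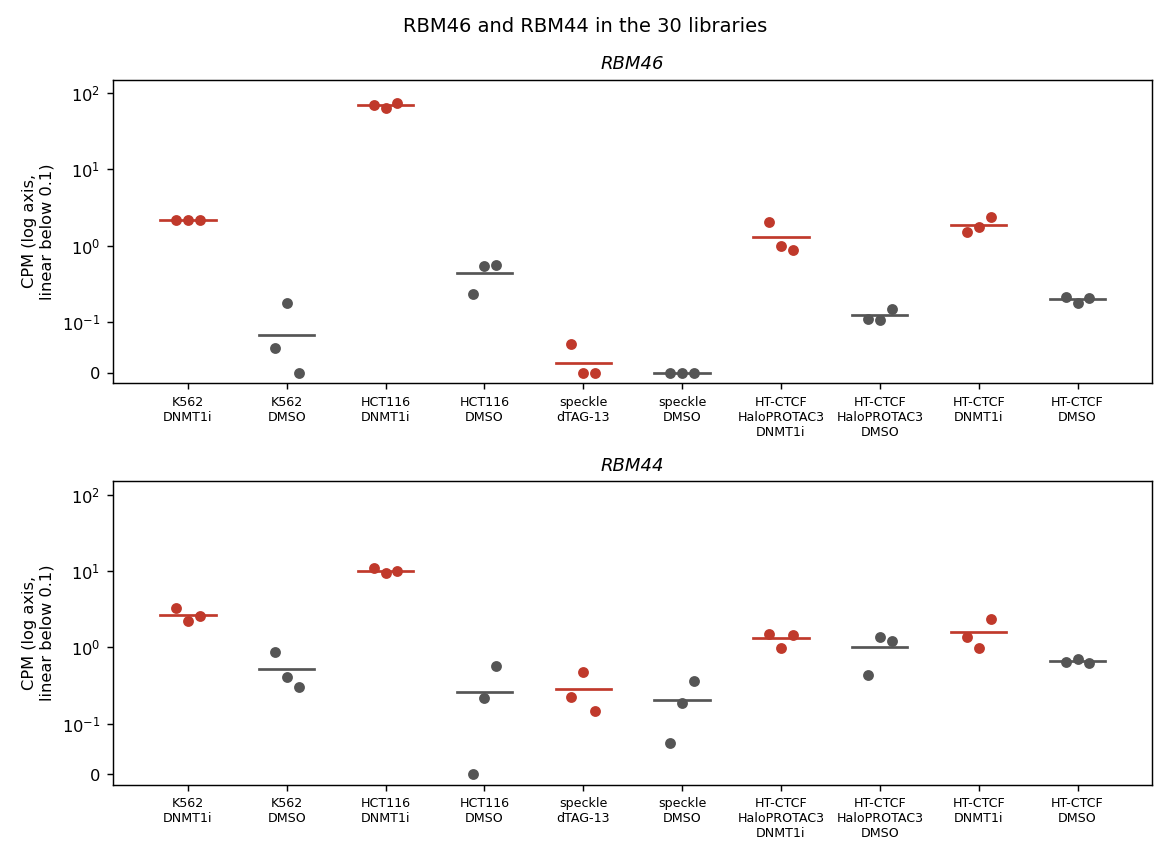
CPM of RBM46 (top) and RBM44 (bottom) in the 30 libraries; points are cultures, lines are means of 3, and the axis is logarithmic above 0.1 CPM and linear below it. RBM46 reaches 63.5 to 74.1 CPM in HCT116 DNMT1i cultures and 0.867 to 2.36 CPM in the HT-CTCF DNMT1i groups, and stays at or under 0.564 CPM in every group without DNMT1i.

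In HT-CTCF cells, treated for 1 day rather than 3, RBM46 was under the count filter and so was not part of the tests across genes. It had 1.51, 1.77 and 2.36 CPM in HT-CTCF DNMT1i cultures, against 0.215, 0.175 and 0.208 CPM in HT-CTCF DMSO cultures, or 30 against 3 counts, a ratio of 9.14 (95% interval 2.84 to 46.8, counting error only). With HaloPROTAC3 it had 2.06, 0.984 and 0.867 CPM in DNMT1i cultures, against 0.11, 0.106 and 0.15 CPM in DMSO cultures, or 22 against 3 counts, a ratio of 10.6 (3.19 to 55.5). All DNMT1i cultures thus lay above all vehicle cultures with and without HaloPROTAC3. Without the count filter the adjusted p was 0.00377 without HaloPROTAC3 and 0.00126 with it, and 0.0799 for the first by DESeq2, which gave none for the second. The difference between these responses was 0.15 ± 0.92 (adjusted p = 1.0), too imprecise to tell them apart. RBM44 in HT-CTCF cells gave 1.38, 0.983 and 2.36 CPM with DNMT1i, against 0.644, 0.7 and 0.625 CPM with DMSO (adjusted p = 0.542 without the filter).

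Across all members the 3-day response differed in extent between the lines. In HCT116 cells 12 of 35 members tested rose (34.3%) and 8 fell (22.9%), while 33.8% of all genes tested rose and 27.9% fell. The members' median log2 fold change was 0.14, against 0.02 over all genes, and their median size of change was 0.22, against 0.40. In K562 cells 2 of 35 rose (5.71%) and 2 fell (5.71%), with RBM14-RBM4, RBM24 and RBM47 not tested, while 6.47% of all genes rose and 2.38% fell, with a median of -0.07 for members and 0 for all genes. The members' shares thus lay near those of all genes in HCT116 cells, and their changes were on the whole smaller. In both lines RBM46 and RBM44, the 2 that rose in K562 cells, passed the count filter only through DNMT1i cultures and could not have been called lower. The K562 count was 2 without DNMT1i replicate 1 or 2 or DMSO replicate 1 or 2, and 10 without DMSO replicate 3. That culture stood apart for several members, such as RBM27 at 47.9 CPM, against 70.7 and 81.9 CPM in the other K562 DMSO cultures.

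**Figure D2:**
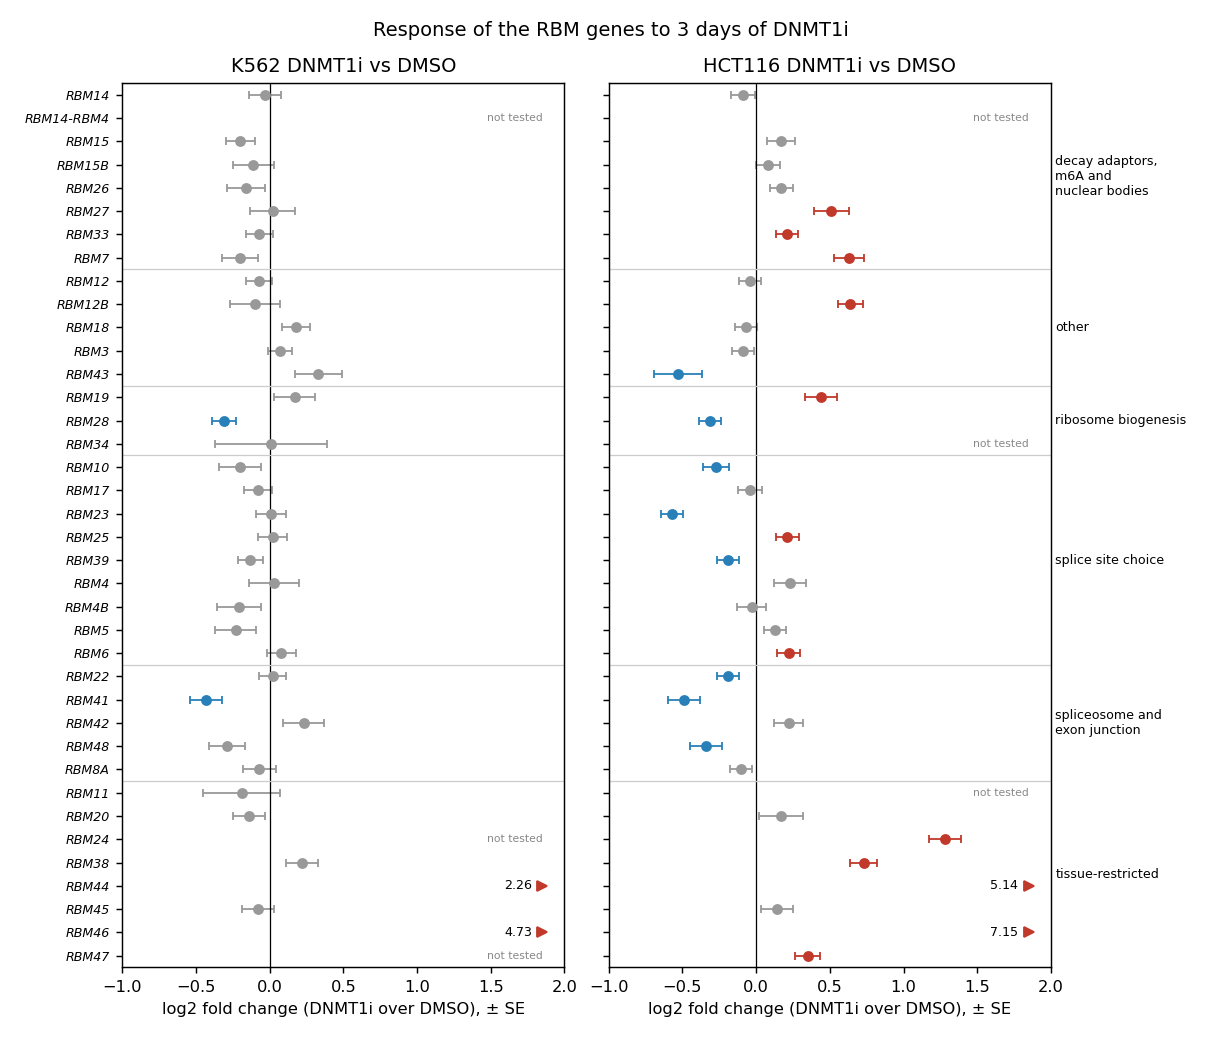
Log2 fold change (DNMT1i over DMSO, x axis) of each member after 3 days in K562 (left) and HCT116 (right), grouped by role; bars are SE, red marks members that rose and blue members that fell at adjusted p below 0.05, grey the rest, and arrows with values mark RBM44 and RBM46, which lie beyond the axis. In HCT116 cells 5 of 7 tested members listed as tissue-restricted rose and 3 of 5 spliceosome and exon junction members fell, beside 33.8% of all genes that rose and 27.9% that fell. RBM46 and RBM44 passed the count filter only through DNMT1i cultures.

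Of the members listed as tissue-restricted, 5 of 7 tested rose in HCT116 cells and 0 fell, where 33.8% of all genes rose and 27.9% fell. These and the following groups by role are small and were not tested as groups. The 5 were RBM46, RBM44, RBM24, RBM38 and RBM47. RBM46 and RBM44 passed the count filter only through the DNMT1i cultures, where they are high, so they could not have been called lower. RBM24, a splicing factor of heart and skeletal muscle, had 20.1, 18.4 and 19.3 CPM with DNMT1i, against 7.61, 7.39 and 7.16 CPM with DMSO (log2 fold change 1.28 ± 0.11, adjusted p = 6.28e-09). RBM38, a target of p53 that stabilizes mRNA of the cell cycle inhibitor p21, had 54.9, 63.4 and 58.0 CPM, against 29.1, 32.9 and 36.7 CPM (0.73 ± 0.09, adjusted p = 7.27e-07). Against the group's name, RBM38 averaged 32.9 CPM or more and RBM45 10.5 CPM or more in all 10 groups, and RBM20 had counts in all 30 libraries. The groups of RBM24 and of RBM38 did not overlap. RBM47, an epithelial RNA-binding protein and cofactor of APOBEC1, had 49.6, 49.2 and 55.0 CPM, against 38.6, 36.7 and 37.2 CPM (0.35 ± 0.083, adjusted p = 0.00124). RBM20, which controls splicing of titin in heart, gave 0.17 and RBM45 0.14, neither called. RBM11, known from brain and testis, was under the filter with 11 counts, against 1 count.

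Splice site choice members moved in both directions in HCT116 cells, with 2 of 9 higher and 3 lower, beside 33.8% and 27.9% of all genes. RBM23, a paralog of RBM39, had 47.0, 52.9 and 51.0 CPM with DNMT1i, against 70.4, 69.8 and 67.6 CPM with DMSO, and fell by 0.57 ± 0.077 on the log2 scale (adjusted p = 2.66e-06) with no overlap. RBM25, which works beside the U1 snRNP, had 176, 178 and 187 CPM, against 149, 152 and 134 CPM (0.21 ± 0.078, adjusted p = 0.0268). RBM39, a U2AF-related splicing factor, had 151, 147 and 158 CPM, against 164, 165 and 155 CPM (-0.19 ± 0.075, adjusted p = 0.034), and its groups overlapped.

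The calls on RBM25 and RBM39 were fragile. That of RBM25 was lost without DNMT1i replicate 1 or 3 or DMSO replicate 1 or 3. It was also lost with the replicate number as a block and in a joint fit of all 12 wild-type libraries. Over its alternatives its log2 fold change ran between 0.13 and 0.26 with an adjusted p of up to 0.163. That of RBM39 was lost by DESeq2, with the replicate number as a block, and without any of the 3 DNMT1i replicates or DMSO replicate 1 or 2. Its values lay between -0.24 and -0.15, with an adjusted p of up to 0.137. RBM5, an apoptosis-linked regulator of alternative splicing, had 66.5, 72.1 and 67.6 CPM, against 57.5, 56.6 and 60.6 CPM, and was not called (0.13, adjusted p = 0.125). Its paralogs went opposite ways: RBM6 rose by 0.22 (adjusted p = 0.0193), and RBM10 had a log2 fold change of -0.27 (adjusted p = 0.00987) with overlapping groups. RBM4, RBM4B and RBM17 were not called.

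Of the members of the spliceosome and exon junction complex, 3 of 5 fell and 0 rose in HCT116 cells, beside the 27.9% of all genes that fell and 33.8% that rose. RBM41, a protein of the minor spliceosome, had 16.7, 15.1 and 17.6 CPM with DNMT1i, against 22.9, 22.4 and 18.8 CPM with DMSO (-0.49 ± 0.11, adjusted p = 0.000836). RBM48, also of the minor spliceosome, fell by 0.34 (adjusted p = 0.0113) and RBM22 by 0.19 (adjusted p = 0.0308). RBM42, a tri-snRNP protein, gave 0.22 and RBM8A, a core of the exon junction complex, -0.10, neither called. In K562 cells RBM41 had 40.5, 34.3 and 43.5 CPM with DNMT1i, against 53.5, 54.5 and 47.8 CPM with DMSO (-0.43 ± 0.11, adjusted p = 0.0359). It was thus lower in both lines with no overlap in either. The K562 call was lost with the replicate number as a block and without DNMT1i replicate 1 or 2 or DMSO replicate 1 or 2 (adjusted p of up to 0.146).

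Among adaptors of RNA decay, m6A factors and nuclear body proteins, 3 of 7 tested rose in HCT116 cells and 0 fell, and the share that rose lay near the 33.8% of all genes. RBM7, the RNA-binding subunit of the nuclear exosome targeting complex, had 39.9, 33.9 and 42.1 CPM with DNMT1i, against 23.7, 23.1 and 22.8 CPM with DMSO (0.63 ± 0.1, adjusted p = 1.71e-05). RBM27, linked to nuclear exosome adaptors, rose by 0.51 (adjusted p = 0.00104) and RBM33 by 0.21 (adjusted p = 0.0148). RBM15, a guide of the m6A writer, its paralog RBM15B, RBM26 and the paraspeckle protein RBM14 were not called, and the readthrough gene RBM14-RBM4 was not tested.

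The nucleolar ribosome assembly members parted in HCT116 cells, where RBM19 rose by 0.44 (adjusted p = 0.00153) and RBM34 was under the count filter. RBM28 had 74.9, 76.5 and 72.5 CPM with DNMT1i, against 86.1, 88.6 and 82.6 CPM with DMSO, and fell by 0.31 (adjusted p = 0.00154). Part of this HCT116 fall lies in its last exon, as given further on. In K562 cells RBM28 had 94.5, 86.4 and 90.7 CPM, against 112, 107 and 108 CPM (-0.31 ± 0.08, adjusted p = 0.0402). Treated cultures were below vehicle cultures in both lines, but the K562 call was lost without any of the 3 DNMT1i replicates or DMSO replicate 1 or 2. That call was also lost without the count filter and with the replicate number as a block (adjusted p of up to 0.175 over the alternatives). Of the other members, RBM12B had 103, 92.3 and 97.4 CPM in HCT116 DNMT1i cultures, against 55.5, 62.1 and 56.5 CPM in HCT116 DMSO cultures, and rose by 0.64 ± 0.083 (adjusted p = 1.5e-06). RBM43 fell by 0.53 (adjusted p = 0.00684), and RBM3, RBM12 and RBM18 were not called.

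In K562 cells no splice site choice member and no decay adaptor was called after DNMT1i. RBM25 had 182, 157 and 199 CPM, against 167, 172 and 179 CPM (0.02, adjusted p = 0.942). RBM39 had 237, 197 and 221 CPM, against 243, 231 and 221 CPM (-0.13, adjusted p = 0.43). RBM5 had 37.4, 25.7 and 29.9 CPM, against 40.4, 33.6 and 32.2 CPM (-0.23, adjusted p = 0.366). The groups overlapped for all 3.

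The difference between the line responses was tested directly, as the K562 log2 fold change minus that of HCT116. Of 37 members tested, 2 had a higher response in K562 (5.41%) and 6 a lower one (16.2%), against 14.1% and 15.7% of all genes. RBM7 had the smallest p, with a difference of -0.83 ± 0.16 (adjusted p = 0.000558), followed by RBM23 with 0.58 ± 0.13 (adjusted p = 0.00167). RBM44 differed by -2.88 ± 0.64 (adjusted p = 0.00219). For RBM46 the difference was -2.41 ± 0.97 (adjusted p = 0.069) and did not pass. RBM5 gave -0.36 (adjusted p = 0.0908), RBM25 -0.18 (adjusted p = 0.349) and RBM39 0.07 (adjusted p = 0.699). The call on RBM5 was gained with DESeq2 size factors and without K562 DNMT1i replicate 1 or K562 DMSO replicate 3, with an adjusted p as low as 0.0195. The total of 8 called ran between 6 and 12 with a library left out, 12 without K562 DMSO replicate 3.

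Without inhibitor the lines themselves differed in most members. Between K562 DMSO and HCT116 DMSO cells 15 of 37 members were higher in K562 (40.5%) and 14 lower (37.8%), while 36.9% of all genes were higher and 39.6% lower. RBM47 had 0, 0.0586 and 0.12 CPM in K562, against 38.6, 36.7 and 37.2 CPM in HCT116, a ratio of 682 lower (233 to 3310, counting error only). RBM24 had 1 count in K562, against 397 in HCT116, a ratio of 403 lower (71.9 to 16000). RBM11 went the other way with 114 counts in K562, against 1 in HCT116, a ratio of 112 higher (19.8 to 4470).

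Members expressed in both lines differed less. RBM20 had 20.1, 22.9 and 20.2 CPM in K562 DMSO cells, against 3.46, 3.86 and 4.28 CPM in HCT116 DMSO cells (2.43 ± 0.12, adjusted p = 4.31e-13). RBM27 was higher in K562 by 1.61, RBM41 by 1.26 and RBM15 by 1.2, and RBM3 was lower (-0.83, adjusted p = 1.02e-08). RBM5 was lower in K562 (-0.73, adjusted p = 5.07e-06) and RBM39 higher (0.5, adjusted p = 1.42e-05), both with no overlap. RBM25 gave 0.23 (adjusted p = 0.034), a call lost without K562 DMSO replicate 3 or HCT116 DMSO replicate 1 or 3. That call was also lost by DESeq2, with its size factors and without the count filter (adjusted p of up to 0.169 over the alternatives). RBM47, near 0 in wild-type K562, had 6.71, 8.62 and 7.37 CPM with dTAG-13 and 7.5, 6.74 and 6.64 CPM with DMSO in speckle cells, which derive from K562. These cells were a clone sequenced as another experiment, and what sets them apart was not tested.

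Partners of the members were read from a separate list. Of 30 listed genes of the U1 and U2 snRNPs, the exon junction complex, the m6A writer, exosome adaptors and the minor spliceosome, 4 of 29 tested rose and 10 fell in HCT116 cells after DNMT1i, where 33.8% of all genes rose and 27.9% fell. MAGOHB, a partner of RBM8A, fell by 0.74 (adjusted p = 3.89e-06). In the same complex CASC3 rose by 0.25 (adjusted p = 0.0057), and MAGOH, EIF4A3 and RNPS1 were not called. The exosome helicase gene MTREX, a partner of RBM7, fell by 0.36 (adjusted p = 0.000625), and the exosome adaptor gene ZFC3H1 rose by 0.35 (adjusted p = 0.000694). The minor spliceosome gene RNPC3 fell by 0.53 (adjusted p = 0.00171), and ARMC7, the partner of RBM48, rose by 0.40 (adjusted p = 0.00259). The U1 snRNP genes SNRPA and SNRPC fell by 0.48 and 0.38 (adjusted p = 4.1e-05 and 0.000268). In K562 cells 0 of 30 rose and 1 fell, beside 6.47% and 2.38% of all genes. The gene that fell was CBLL1, an m6A factor, by 0.33 (adjusted p = 0.0296). The partners' median log2 fold change was -0.08 in HCT116 cells and -0.03 in K562 cells.

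Exon use within members was read from exon bins of the wild-type and speckle libraries, as the change of a bin relative to the rest of its gene. In HCT116 cells 9 of 647 member bins, in 8 genes, changed with DNMT1i, 4 higher and 5 lower, while 0.593% of all bins were higher and 0.253% lower. In K562 cells 0 of 634 member bins were called by edgeR, with 17 at an unadjusted p under 0.05, while 0.0492% of all bins were called. The HCT116 count was 5 without DNMT1i replicate 1 or DMSO replicate 3, 4 without DNMT1i replicate 3 and 3 without DMSO replicate 1, so several of these bins rest on few libraries.

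Reads from an internal first exon of RBM47 rose with DNMT1i in HCT116 cells. The first exon of transcript RBM47-203 (chr4:40515867-40515973, 107 bases), whose 5′ end lies inside the printed RBM47 window, had 15, 22 and 29 counts with DNMT1i, against 3, 0 and 1 counts with DMSO. Relative to the rest of the gene it rose by 2.37 ± 0.36 on the log2 scale (adjusted p = 1.52e-06), and it stayed called with any library left out. Exon 2 of 7 of the canonical transcript had 15, 16 and 20 counts, against 31, 28 and 24 counts, and fell by 0.84 (adjusted p = 0.00927). The gene as a whole rose by 0.35, as given above, so more of its RNA carried the internal first exon and less of it an early canonical exon. Reads from the internal first exon were not limited to DNMT1i cultures. In speckle cells it had 1, 5 and 8 counts with dTAG-13, against 8, 7 and 6 with DMSO. Canonical exon 2 had 0, 0 and 0 counts in both of these groups, and neither exon was tested there. In wild-type K562 cells the internal first exon had 0, 0 and 0 counts in both groups.

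RBM39 showed more use of an alternative exon in HCT116 cells. The exon (chr20:35734876-35735081, hg38, minus strand) is not part of the canonical transcript and is annotated in 5 others: the protein-coding RBM39-205, the nonsense-mediated decay transcripts RBM39-209 and RBM39-219, the retained-intron transcript RBM39-245 and RBM39-242, which has no defined reading frame. The counts cannot be assigned to any 1 of these. The sequence is printed because the stop codon annotated for RBM39-205, in capitals, lies at bases 185 to 187 of the exon.
RBM39 alternative exon: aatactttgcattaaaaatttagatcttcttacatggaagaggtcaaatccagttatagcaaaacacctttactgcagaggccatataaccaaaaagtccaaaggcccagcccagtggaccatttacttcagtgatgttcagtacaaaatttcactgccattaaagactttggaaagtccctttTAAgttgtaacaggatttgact
The bin had 30, 25 and 35 counts in HCT116 DNMT1i cells, against 7, 10 and 13 counts in HCT116 DMSO cells. It rose by 1.09 ± 0.24 relative to the rest of RBM39 (adjusted p = 0.00274), and the groups did not overlap. The call was lost without DNMT1i replicate 1 or 3 or DMSO replicate 1 (adjusted p of up to 0.0819). In K562 cells the same exon had 13, 6 and 14 counts with DNMT1i, against 10, 5 and 5 with DMSO, too few to be tested.

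**Figure D3:**
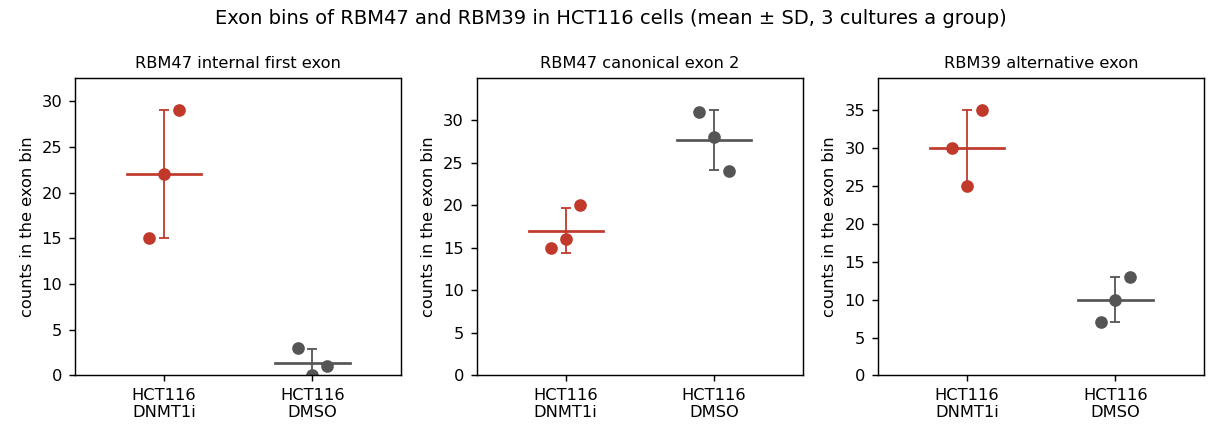
Counts in 3 exon bins in HCT116 DNMT1i (red) and HCT116 DMSO (grey) cultures; points are cultures, horizontal lines means and bars SD (n = 3). The internal first exon of RBM47 has 15 to 29 counts with DNMT1i and 0 to 3 with DMSO, canonical exon 2 is lower with DNMT1i, and the RBM39 alternative exon has 25 to 35 counts with DNMT1i and 7 to 13 with DMSO.

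The other called bins all lay in a last exon of the canonical transcript. That of RBM28 (exon 19 of 19) had 424, 456 and 423 counts with DNMT1i, against 612, 705 and 614 with DMSO, and fell by 0.42 relative to its gene (adjusted p = 0.00141). Reads of this exon are part of the RBM28 gene counts given above, and whether the rest of the gene fell was not tested. The last exon of RBM17, which encodes the 3′ splice site protein SPF45, fell by 0.50 (adjusted p = 0.00373, lost without DMSO replicate 3 at 0.0721), and that of RBM8A fell by 0.43 (adjusted p = 0.0043, lost without DNMT1i replicate 2 or 3 or DMSO replicate 1, up to 0.113). Lower use was also called in RBM12, by 0.46, and higher use in RBM3, by 0.39, and RBM24, by 0.58. The RBM24 call (adjusted p = 0.0297) was lost without DNMT1i replicate 1 or 3 or DMSO replicate 1 or 3. A stricter count filter or the replicate number as a block also lost it (up to 0.377 over the alternatives).

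After depletion of SON and SRRM2 for 6 hr, RBM15 rose and RBM25 and RBM39 fell. In speckle cells 1 of 33 members tested rose (3.03%) and 2 fell (6.06%), while 1.57% of all genes rose and 3.09% fell. RBM14-RBM4, RBM24, RBM34, RBM44 and RBM46 were under the count filter. The members' median log2 fold change was 0, against -0.01 over all genes, and 9 members had an unadjusted p under 0.05. The count of 3 depends on the processing: it was 5 without dTAG-13 replicate 3, 5 by DESeq2 and 7 without the count filter. It was higher still with the replicate number as a block, as given in the closing section on processing.

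RBM15, the guide of the m6A writer, had 48.1, 48.9 and 47.0 CPM with dTAG-13, against 34.8, 34.5 and 34.2 CPM with DMSO. It rose by 0.47 ± 0.068 (adjusted p = 0.00469), and the replicates of each group lay within 2 CPM of each other. RBM25 had 207, 198 and 221 CPM, against 287, 272 and 289 CPM, and fell by 0.43 ± 0.063 (adjusted p = 0.00518). RBM39 had 216, 211 and 218 CPM, against 273, 274 and 277 CPM, and fell by 0.35 ± 0.053 (adjusted p = 0.0058). None of these groups overlapped, though the call on RBM39 was lost without dTAG-13 replicate 2 or DMSO replicate 1 (adjusted p of up to 0.0583). RBM5 had 50.6, 49.2 and 49.2 CPM, against 46.8, 47.0 and 51.3 CPM, with overlap (0.04, adjusted p = 0.815).

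**Figure D4:**
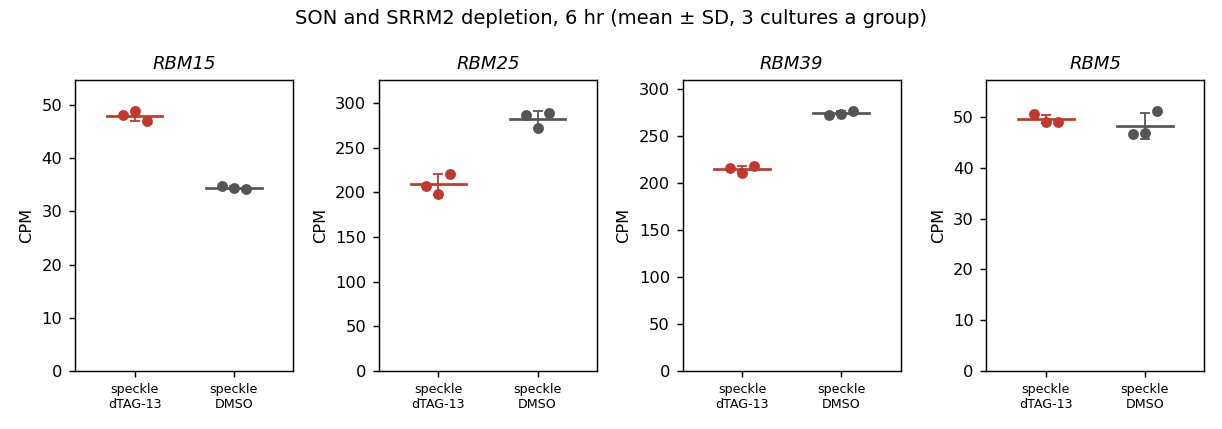
CPM of RBM15, RBM25, RBM39 and RBM5 in speckle dTAG-13 (red) and speckle DMSO (grey) cultures after 6 hr; points are cultures, lines means and bars SD (n = 3). RBM15 is higher and RBM25 and RBM39 are lower with dTAG-13 without overlap, and RBM5 overlaps.

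Members with an unadjusted p under 0.05 that did not pass included RBM3 at 366, 379 and 414 CPM with dTAG-13, against 329, 330 and 322 CPM with DMSO (0.24, adjusted p = 0.0577), and RBM10 at 59.2, 59.0 and 83.3 CPM, against 90.9, 84.3 and 110 CPM (-0.50, adjusted p = 0.0869). Of the 30 partners 0 rose and 2 fell, beside 1.57% and 3.09% of all genes: METTL3, the catalytic subunit of the m6A writer that RBM15 guides, by 0.59 (adjusted p = 0.00474), and LUC7L3, a U1 snRNP-associated protein, by 0.37 (adjusted p = 0.00791). Without a replicate block, no exon bin of a member was called among 634 tested by edgeR, with 23 at an unadjusted p under 0.05. Of all bins 0.132% were called. With the replicate number as a block some member bins were called, as given in the closing section on processing. RBM46 was at 0.0564, 0 and 0 CPM with dTAG-13 and at 0, 0 and 0 CPM with DMSO.

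In HT-CTCF cells treated for 1 day with DNMT1i, RBM11, RBM14-RBM4, RBM34, RBM44 and RBM46 did not pass the filter and were not tested. Without HaloPROTAC3, 0 of 33 members rose and 0 fell by edgeR, with 4 at an unadjusted p under 0.05 and 1 called by DESeq2, while 1.98% of all genes rose and 0.504% fell. Leaving out any library loosened the filter, which goes by the size of the smallest group. RBM46 then passed it through DNMT1i cultures, where it is high, and was called higher (adjusted p of up to 0.0417). These fits share most of their libraries and are not separate support. With a library left out the count was 1, or 2 without HaloPROTAC3 DNMT1i replicate 3. With HaloPROTAC3, 0 rose and 1 fell, while 2.86% of all genes rose and 2.55% fell. The gene that fell, RBM28, had 85.0, 87.0 and 86.8 CPM with HaloPROTAC3 and DNMT1i, against 103, 121 and 111 CPM with HaloPROTAC3 and DMSO (-0.33 ± 0.079, adjusted p = 0.011).

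RBM28 lay in the same direction in the pair without HaloPROTAC3, at 106, 113 and 99.0 CPM with DNMT1i, against 128, 117 and 128 CPM with DMSO, without passing (-0.22, adjusted p = 0.151). The call with HaloPROTAC3 was lost without HaloPROTAC3 DMSO replicate 2 or 3 (adjusted p of up to 0.0734). With any library left out, RBM46 passed the loosened filter, as above, and was called higher in this test (adjusted p of up to 0.0344). With RBM46 included, the count was 4 without HaloPROTAC3 DNMT1i replicate 3. It was 3 without HaloPROTAC3 DNMT1i replicate 1 or HT-CTCF DMSO replicate 1. Without HaloPROTAC3 DMSO replicate 2 or 3 it was 1, and that gene was RBM46 and not RBM28. It was 2 without any other library. The test of whether the response to DNMT1i differed with HaloPROTAC3 called 0 of 33 members by edgeR or DESeq2, while 0.0552% of all genes had a higher and 0.213% a lower response, so a count of 0 is near what those shares would give. An unadjusted p under 0.05 was seen for 6 members, with RBM15B at -0.46 ± 0.14 (adjusted p = 0.123). RBM25, RBM39 and RBM5 gave -0.13, 0.11 and 0.03 (adjusted p = 0.664, 0.683 and 0.949).

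With CTCF depletion RBM24 fell and RBM12B, RBM47 and RBM4B rose, with and without DNMT1i. In DMSO cultures 3 of 33 rose (9.09%) and 1 fell (3.03%) with HaloPROTAC3, while 10.1% of all genes rose and 7.28% fell. In DNMT1i cultures 4 rose (12.1%) and 4 fell (12.1%), while 12.2% of all genes rose and 10.1% fell. The second count was 13 without HT-CTCF DMSO replicate 1. These comparisons rest on separate cultures. The 4 members were called in the same direction in both, but the share of all genes called so was not counted. Nothing particular to the members is read from it.

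RBM24 had 6.49, 6.48 and 4.66 CPM with HaloPROTAC3 and DMSO, against 18.2, 15.9 and 19.6 CPM with DMSO alone, and fell by 1.51 ± 0.17 (adjusted p = 3.71e-08). In DNMT1i cultures it had 5.42, 6.89 and 5.63 CPM with HaloPROTAC3, against 15.8, 14.7 and 12.7 CPM without it, and fell by 1.19 ± 0.18 (adjusted p = 1.03e-05). All HaloPROTAC3 cultures thus lay below all cultures without it, and both calls held in every alternative. DNMT1i alone for 1 day left RBM24 uncalled in these cells (-0.28, adjusted p = 0.381), unlike the 3-day rise in wild-type HCT116 cells, but the 2 experiments differ in clone and time and their difference was not tested.

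RBM12B had 111, 118 and 112 CPM with HaloPROTAC3 and DMSO, against 95.7, 84.0 and 80.9 CPM with DMSO alone, and rose by 0.46 ± 0.083 (adjusted p = 0.000143). RBM47 had 37.2, 42.4 and 42.1 CPM, against 27.7, 31.1 and 29.4 CPM, and rose by 0.52 ± 0.11 (adjusted p = 0.000637). RBM4B, a splice site regulator, had 20, 25.1 and 23.2 CPM, against 17.4, 18.0 and 17.1 CPM, and rose by 0.44 ± 0.13 (adjusted p = 0.0211). No groups overlapped. In DNMT1i cultures these 3 rose by 0.40, 0.46 and 0.45 with HaloPROTAC3. The RBM4B call was lost by DESeq2 and without HaloPROTAC3 DMSO replicate 2 or 3 or DMSO replicate 2 or 3 in the first comparison (adjusted p of up to 0.11). In the second it was lost without HaloPROTAC3 DNMT1i replicate 3 or DNMT1i replicate 2 (up to 0.127).

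**Figure D5:**
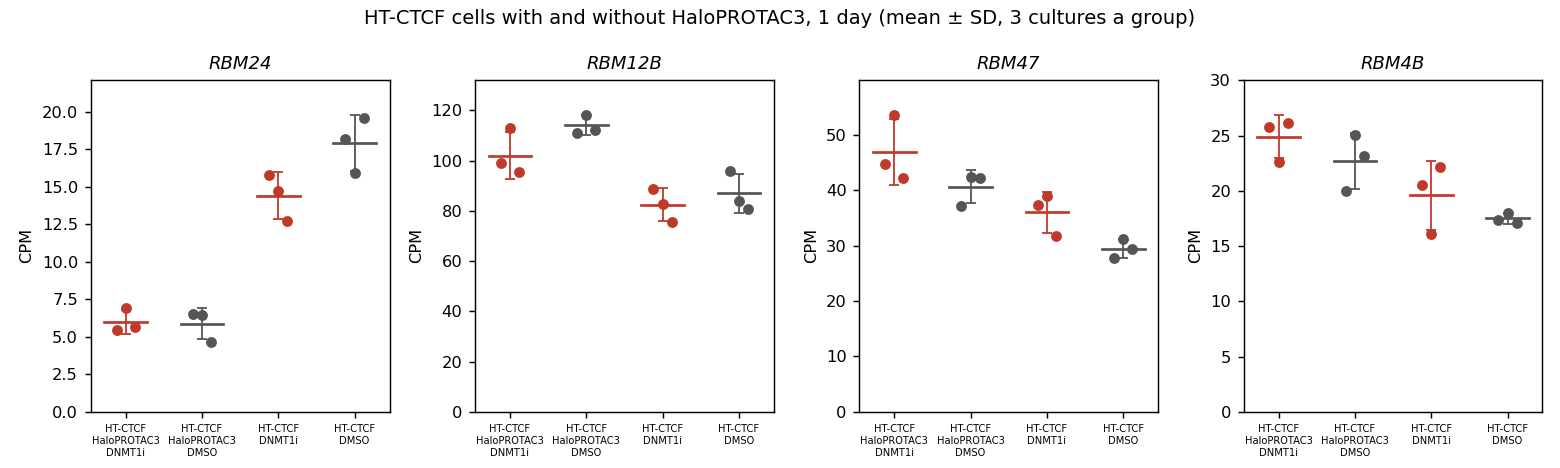
CPM of RBM24, RBM12B, RBM47 and RBM4B in the 4 HT-CTCF groups after 1 day, DNMT1i in red and DMSO in grey; points are cultures, lines means and bars SD (n = 3). RBM24 is at 4.66 to 6.89 CPM in the 6 HaloPROTAC3 cultures and at 12.7 to 19.6 CPM in the 6 without it.

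In DNMT1i cultures 4 further members passed. RBM14 had 59.8, 55.7 and 46.7 CPM with HaloPROTAC3, against 79.4, 79.4 and 74.2 CPM without it (-0.43 ± 0.094, adjusted p = 0.000898). RBM17 fell by 0.31 (adjusted p = 0.00875, lost without DNMT1i replicate 3 at 0.0542) and RBM19 by 0.35 (adjusted p = 0.00904, lost without HaloPROTAC3 DNMT1i replicate 2 or DNMT1i replicate 1, up to 0.0537). RBM43 rose by 0.56 (adjusted p = 0.0442), a call lost in 11 of 18 alternatives. The test of the difference between DNMT1i and DMSO cultures called none of these 4 (adjusted p = 0.302 for RBM14), so their change was not shown to depend on DNMT1i. RBM25, RBM39 and RBM5 were not called in either comparison, with 0.13, -0.02 and 0.12 in DMSO cultures and 0, 0.09 and 0.15 in DNMT1i cultures. Of the 30 partners, 1 rose and 1 fell with HaloPROTAC3 in DMSO cultures, beside 10.1% and 7.28% of all genes, and 1 rose and 2 fell in DNMT1i cultures, beside 12.2% and 10.1%.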

How the data were processed

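RNA-seq libraries carried molecular barcodes (UMIs). Per the labels and the submitters' processing notes, the authors used UMI-tools 1.1.1, cutadapt 2.7 and STAR 2.6.0 on hg38 and deposited HTSeq counts per gene and per exon bin of a flattened annotation as whole-number counts, not normalized. No source consulted states a strand setting, so overlapping antisense genes may share reads. Counts not assigned to a single gene, 17.1% to 23.6% per library, were left out. Of the authors' tables, 18 per-sample columns were not used here, nor were the tables of their comparisons, which hold fold changes and p-values.

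Total counts per library were 4243092 to 21228534. CPM scales each library's gene counts to a common total. Members were found by identifier with GENCODE 44 symbols (99.7% of identifiers matched). Tests were edgeR 4.0.16 quasi-likelihood F tests (TMM, filterByExpr) over all genes, adjusted by Benjamini-Hochberg and called below 0.05 with no size limit; SE is the log2 fold change over the root of F. The 4 HT-CTCF groups shared a fit, as did the 4 wild-type groups for comparisons between lines. Exon bins were tested with diffSpliceDGE. Low counts are given as ratios with exact 95% intervals for counting error. The study compared cultures, 3 a group, and p-values measure their spread. Alternatives were DESeq2 1.42.0, its size factors, no filter, a size limit, a replicate block, other sample sets and leaving out each library. Same-numbered libraries did not deviate together in every pair (K562 correlations 0.211, -0.21 and -0.053), and no main result is blocked. In speckle cells the correlations were all positive (0.084, 0.155 and 0.401). The main speckle results thus leave out any effect shared by replicate number, and the counts with a block are given below. The gene and exon bin tests were first run on simulated counts with known changes, separate from the results given here. The named members were, in each comparison, the called ones, up to 8 by p, and always RBM5, RBM25 and RBM39; bins likewise, 1 a gene in up to 6 genes. The members and lists were chosen with earlier results of these data known.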

Additional observations from a re-analysis of the deposited data

Results flagged for a closer look

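For 8 members the response to 3 days of DNMT1i differed between the lines by a test of the difference itself (K562 log2 fold change minus that of HCT116, edgeR quasi-likelihood test). RBM7, of the nuclear exosome targeting complex, differed by -0.83, with RBM7 at 39.5, 43.2 and 43.9 CPM in K562 DNMT1i cells, against 48.3, 54.3 and 39.6 CPM in K562 DMSO cells. RBM23 differed by 0.58, being lower with DNMT1i in HCT116 and at 61.6, 58.9 and 50.2 CPM, against 53.7, 52.3 and 59.1 CPM in K562. RBM44 differed by -2.88, having risen in both lines.

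RBM43 differed by 0.87 and had 11.7, 9.94 and 10.2 CPM with DNMT1i, against 9.27, 9.26 and 6.02 CPM with DMSO in K562, while it fell in HCT116. RBM12B differed by -0.73 and RBM38 by -0.5, both having risen in HCT116 only by the test within each line. These 6 held in all 17 alternatives.

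The other 2 were less firm. RBM11, at 2.5, 1.72 and 1.42 CPM with DNMT1i, against 2.06, 2.64 and 1.57 CPM with DMSO in K562, differed by -3.06 (adjusted p = 0.0388), which rests on 11 counts with DNMT1i and 1 count with DMSO in HCT116. That call was lost with DESeq2 and without K562 DNMT1i replicate 2 or 3, K562 DMSO replicate 1 or 2, HCT116 DNMT1i replicate 3 or HCT116 DMSO replicate 1 or 2 (adjusted p of up to 0.149). RBM15 differed by -0.36 (adjusted p = 0.047), which was lost in 12 of 17 alternatives (up to 0.173), among them without K562 DNMT1i replicate 1 or 2, K562 DMSO replicate 1 or 2, any HCT116 DNMT1i replicate or HCT116 DMSO replicate 1 or 3.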

How the results depend on the processing

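With a log2 size limit of 0.5 (0.25 in speckle cells) called members numbered 9 in HCT116 and 2 in K562 after DNMT1i, 0 for DNMT1i with HaloPROTAC3, and 2 each for HaloPROTAC3 in DMSO and in DNMT1i cultures. Without the low count filter they numbered 7 in speckle cells, 1 for DNMT1i in HT-CTCF cells and 2 with HaloPROTAC3, and by DESeq2 5 in speckle cells and 1 for DNMT1i in HT-CTCF cells. With the replicate number as a block they numbered 2 in K562 and 10 in speckle cells, and speckle exon bins 8. Same-numbered speckle libraries correlated by 0.084, 0.155 and 0.401, all positive, and whether they share a replicate effect was not tested. No other count moved by over 1.5 times.

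With a library left out, counts ran from 2 to 10 in K562, 15 to 20 in HCT116, 2 to 5 in speckle cells, 1 to 2 for DNMT1i in HT-CTCF cells, 1 to 4 with HaloPROTAC3, 3 to 4 and 6 to 13 for HaloPROTAC3 in DMSO and in DNMT1i cultures, 6 to 12 for the line responses and 26 to 31 between the lines. Exon bins ran from 3 to 12 in HCT116 and 0 to 2 in speckle cells. The interaction and the K562 bins stayed at 0. The HT-CTCF counts for DNMT1i, with and without HaloPROTAC3, include RBM46, which passed the filter with any library left out because a smaller group loosens the filter.

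Small uncalled log2 values changed sign. Over all alternatives RBM25 ran from -0.08 to 0.11 in K562 and from -0.01 to 0.16 for DNMT1i in HT-CTCF cells. RBM39 ran from -0.14 to 0 for DNMT1i in HT-CTCF cells and from -0.02 to 0.07 with HaloPROTAC3. For HaloPROTAC3 in DMSO it ran from -0.08 to 0.06 (0.01 without the filter). RBM25 ran from -0.12 to 0.05 for HaloPROTAC3 in DNMT1i, and RBM5 from -0.02 to 0.08 in the interaction. The causes were not tested. Of the alternative values of named members and bins, 1047 kept direction and call, 15 reversed, 3 gained the call and the rest lost it. The HT-CTCF libraries had the lowest totals, and 5 members fell under the filter there, as in speckle cells.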
